A study of Mus musculus with 4 samples.

Results

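Transforming growth factor beta (TGF-beta) signalling was followed in mouse kidney through 9 genes, namely the ligands Tgfb1, Tgfb2, Tgfb3 and Bmp7, the latency protein Ltbp1, the receptors Tgfbr1 and Tgfbr2, and the intracellular effectors Smad3 and Smad7. They were found by their symbols in the array files and were represented by 19 of 56605 probes. Of the 19 probes, 17 were above background on at least 1 array and 13 on all 4, and the brightest probe of each of the 9 genes was above background on all 4. All 9 were among the 24638 genes tested. Kidney RNA came from ICR mice, an outbred strain, that had been given vancomycin or saline by injection at zeitgeber time 2 (ZT2, 2 hours after lights on) or at ZT14. Kidneys were taken 1 day after the injection. The 4 groups were vancomycin at ZT2, saline at ZT2, vancomycin at ZT14 and saline at ZT14, each with 1 single-colour array. Vancomycin is a glycopeptide antibiotic with known kidney toxicity at high exposure. The labels give no age, sex or dose, and they leave unsaid how many mice a sample came from.

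TGF-beta ligands are secreted in a latent complex, tethered to the matrix by latent TGF-beta binding proteins, and act only after release, for instance by integrins. The active ligand binds the type II receptor, which phosphorylates the type I receptor, and this in turn phosphorylates SMAD2 and SMAD3. SMAD7 is induced by the pathway and inhibits it. In the kidney the pathway is best known for driving matrix deposition and myofibroblast formation after injury, and BMP7, made by tubules and needed for nephron formation, is known to oppose it.

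Of the 9 genes, Tgfb2 differed most between vancomycin and saline kidneys. It was 10.8-fold lower with vancomycin at ZT2 and 21.7-fold lower at ZT14, and both of its probes showed this. Tgfb3 and Ltbp1 were lower by about 2-fold or somewhat more or less, Tgfb1 and Tgfbr2 were lower by less than 1.5-fold, and Tgfbr1, Smad3 and Smad7 lay between -0.09 and 0.18 on the log2 scale at both times. These are differences between single arrays and carry no test at a single time.

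Signals are given as a percentage of the 75th percentile of all probes on the same array, and differences as log2 of vancomycin over saline. A probe counts as above background by the scanner software's own flag. Levels of different probes were not set against each other, since probes differ in brightness. With 1 array per group there is no spread between animals. A fit of treatment and injection time over all 4 arrays (limma) had 1 residual degree of freedom. Its p-values set the mean vancomycin effect over the 2 times against a spread. That spread comes from how far the effects at the 2 times differed, together with a spread that limma borrows from all genes (prior SD 0.168). The slide and the injection time cannot be told apart, since each slide held 1 time. The array position and the treatment cannot be told apart either, since vancomycin had the same position on both slides. In bulk tissue, fewer cells of a type and less RNA per cell cannot be told apart.

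Between 60.6% and 64.7% of spots were well above background and 0 were saturated. Within an array, the 10 spots of a repeated probe typically differed by an SD of 0.043 to 0.051 log2 units, which is technical. Markers of the labelled tissue were above background on all 4 arrays, with 8 of 8 proximal tubule genes such as Slc34a1 and Lrp2, 7 of 7 distal nephron genes such as Umod and Aqp2, and 6 of 6 podocyte genes such as Nphs1.

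The sequences of the brightest Tgfb2 probe and the brightest Tgfb1 probe are shown because the 2 genes are close relatives and their probes fall on the same conserved stretch near the end of the coding region, so the size of the difference at Tgfb2 can be read against how alike the probes are. Capitals mark bases that are identical at aligned positions of the 2 probes, and both are given 5′ to 3′ on the transcript strand, as the array files list them.
Tgfb2 probe: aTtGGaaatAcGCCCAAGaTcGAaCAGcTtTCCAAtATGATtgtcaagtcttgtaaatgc
Tgfb1 probe: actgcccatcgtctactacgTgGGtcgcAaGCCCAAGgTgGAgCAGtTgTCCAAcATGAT
The Tgfb2 probe lies at chr1:188449333-188449392 on the minus strand and the Tgfb1 probe at chr7:26489877-26489936 on the plus strand, both in mm9. Along the 41 aligned bases 28 were identical (68.3%), and the longest identical run was 7 bases. The second Tgfb2 probe, at chr1:188447534-188447593, starts 1799 bases further along the transcript.

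Tgfb2 encodes a secreted TGF-beta isoform that is required for kidney development. With the probe shown above, its signal was 37.3% with vancomycin and 401.1% with saline at ZT2, and 31.6% with vancomycin and 686.7% with saline at ZT14. Both vancomycin values lay below both saline values. The share of all genes separated in this way was not counted, here or for the genes below. The second probe gave 14.6% with vancomycin against 130.4% with saline at ZT2, and 15.3% with vancomycin against 269.0% with saline at ZT14. The log2 differences were -3.43 at ZT2 and -4.44 at ZT14 for the first probe, and -3.16 and -4.14 for the second. Among genes above background on both arrays, 33 (0.155%) lay as low as Tgfb2 or lower at ZT2, counting Tgfb2 itself, and 3 (0.0135%) did at ZT14. Of the 20759 genes above background on all 4 arrays, 1 lay lower than Tgfb2 at both times. Fitted over both times, the difference was -3.93 ± 0.33 (SE, n = 2 arrays per treatment), a 15.3-fold lower signal, with an unadjusted p of 0.00158 and a Benjamini-Hochberg adjusted p of 0.52 over all genes in limma. In the same fit 55 genes had a p at or below that of Tgfb2.

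**Figure D1:**
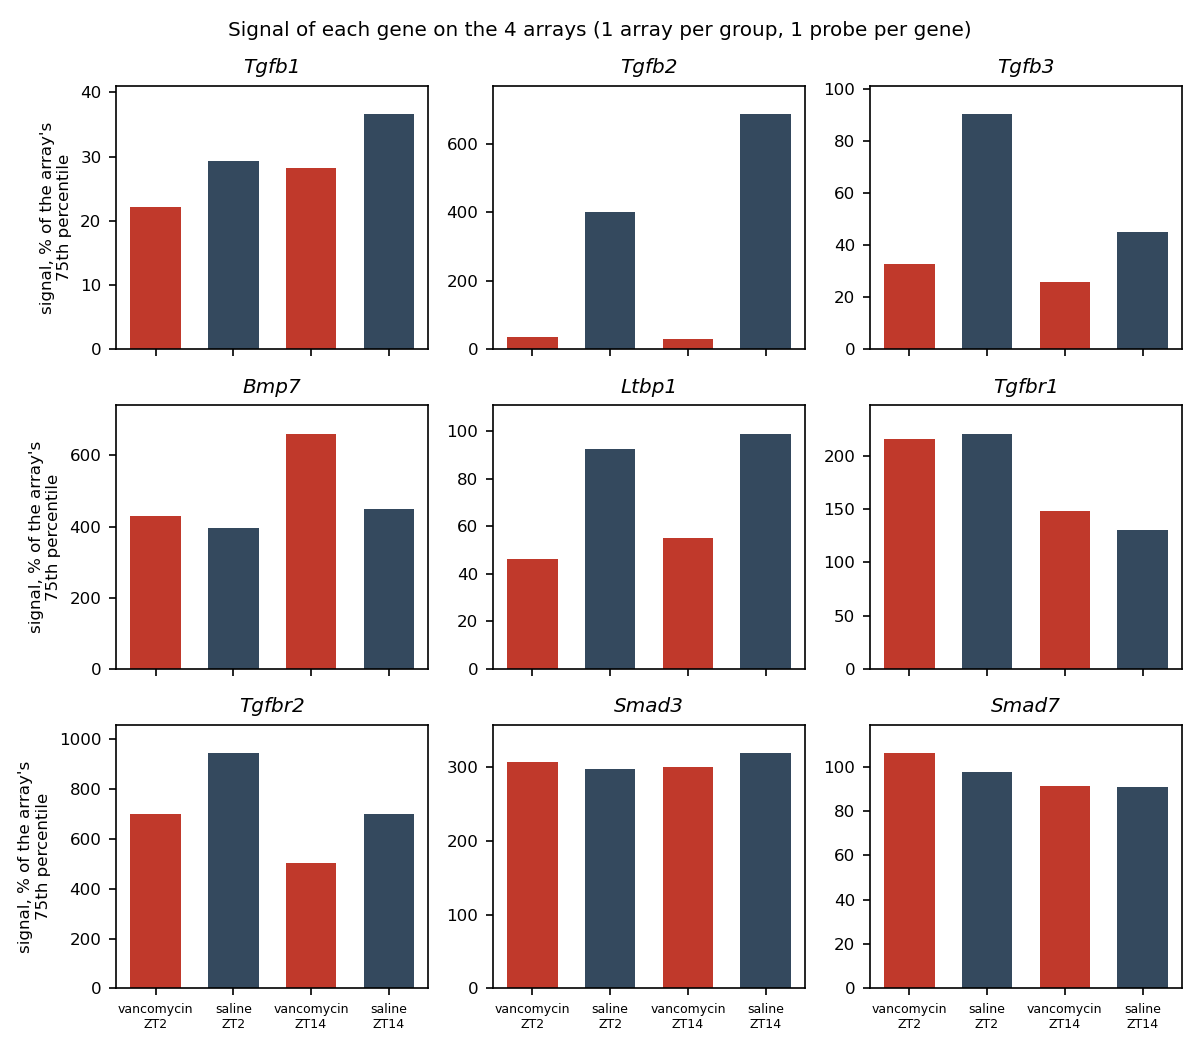
Signal of the brightest probe of each of the 9 genes on each array, as a percentage of that array's 75th percentile (bars from 0, 1 array per bar, vancomycin left of saline at each time, separate vertical scales). The Tgfb2 bars of both vancomycin kidneys stand far below those of the saline kidneys, and the Smad3 and Smad7 bars are nearly level.

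The other ligands of the TGF-beta type were lower with vancomycin by smaller amounts. Tgfb3, an isoform of palate and lung development, had a signal of 32.9% with vancomycin and 90.3% with saline at ZT2, and of 25.9% with vancomycin and 45.1% with saline at ZT14 (probe at chr12:87397804-87397863, minus strand). Both vancomycin values lay below both saline values, with log2 differences of -1.46 at ZT2 and -0.80 at ZT14. Its fitted difference was -1.13 ± 0.24 (SE, n = 2 arrays per treatment), with an unadjusted limma p of 0.0197 and an adjusted p of 0.52.

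Tgfb1, the isoform most studied in kidney fibrosis, had 22.2% with vancomycin and 29.3% with saline at ZT2, and 28.2% with vancomycin and 36.6% with saline at ZT14. Both vancomycin values lay below both saline values, though vancomycin at ZT14 and saline at ZT2 lay next to each other. The log2 differences were -0.40 and -0.38, with a limma p of 0.0677 and an adjusted p of 0.62. A second, dim Tgfb1 probe (chr7:26477408-26477467) also stood at -0.40 at ZT2, with 4.60% in the vancomycin kidney and 6.07% in the saline kidney. At ZT14 it was not well above background with vancomycin and at 3.83% with saline, which makes it at least 1.84-fold lower.

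Bmp7 was the ligand that did not share this direction. Its signal was 430.8% with vancomycin and 395.4% with saline at ZT2, and 661.3% with vancomycin and 450.3% with saline at ZT14 (chr2:172695203-172695262, minus strand). The vancomycin value was the higher at each time, by 0.12 and 0.55 on the log2 scale. The fitted difference was 0.34 ± 0.19 (SE, n = 2 arrays per treatment) with a limma p of 0.170 and an adjusted p of 0.70.

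Ltbp1, which binds the latent ligand and anchors it in the matrix, had 46.3% with vancomycin against 92.4% with saline at ZT2, and 55.0% with vancomycin against 98.9% with saline at ZT14 (chr17:75790530-75790589). Both vancomycin values lay below both saline values, and the log2 differences were -1.0 and -0.85. The first lies just short of 2-fold, at 1.995-fold. The fitted difference of -0.92 ± 0.14 (SE, n = 2 arrays per treatment) had an unadjusted limma p of 0.00869 and an adjusted p of 0.52. The other 3 Ltbp1 probes were dim. One of them, at chr17:75748171-75748230, did not show the difference at ZT2, with 4.05% in the vancomycin kidney and 3.38% in the saline kidney, a log2 difference of 0.26. At ZT14 that probe was not well above background with vancomycin and at 3.41% with saline. Another was above background on the saline array at ZT14 alone, and the last on 0 arrays.

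The 2 receptors differed from each other. Tgfbr2, the type II receptor that binds the ligand first, had 698.1% with vancomycin against 944.6% with saline at ZT2, and 505.0% with vancomycin against 700.3% with saline at ZT14. The vancomycin value was lower within each time by a similar amount, -0.44 and -0.47 in log2 units. Both vancomycin values lay below both saline values, though vancomycin at ZT2 and saline at ZT14 lay close together. The fitted difference was -0.45 ± 0.14 (SE, n = 2 arrays per treatment), with an unadjusted limma p of 0.0474 and an adjusted p of 0.58. Tgfbr1, the type I receptor kinase, had 215.7% with vancomycin and 220.6% with saline at ZT2, and 148.3% with vancomycin and 130.5% with saline at ZT14 (chr4:47427421-47427480). Its log2 differences of -0.03 and 0.18 had opposite signs, though the first was 0.0034 with median centring, and the adjusted p was 0.93. A dimmer Tgfbr1 probe stood at 0.08 and 0.35, and the next, near background, was at 4.60% with vancomycin and 2.35% with saline at ZT14.

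The intracellular effectors differed little. Smad3, which carries the receptor's signal to the nucleus, had 307.6% with vancomycin and 297.9% with saline at ZT2, and 300.7% with vancomycin and 319.5% with saline at ZT14 (chr9:63494574-63494633, minus strand). All 4 values fell within a narrow range, and the log2 differences were 0.05 and -0.09. Its second probe gave 0.03 and 0.09. Smad7, the inhibitory SMAD, had 106.2% with vancomycin and 97.8% with saline at ZT2, and 91.5% with vancomycin and 90.9% with saline at ZT14 (chr18:75555371-75555430). These are log2 differences of 0.12 and 0.01. Its second, dimmer probe had 5.39% with vancomycin and 6.53% with saline at ZT2, and 6.46% with vancomycin and 6.38% with saline at ZT14. It thus stood on the other side of 0 at ZT2, at -0.28, and at 0.02 at ZT14. The fitted differences were -0.02 ± 0.14 for Smad3 and 0.06 ± 0.14 for Smad7 (SE, n = 2 arrays per treatment), with adjusted limma p of 0.98 and 0.93. Both measure transcript, and SMAD activity is set mainly by phosphorylation, which arrays do not read.

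By a 2-fold size rule, 2 of the 9 genes were lower with vancomycin at ZT2, Tgfb2 and Tgfb3, where 3.62% of all genes were, and 0 were higher, where 1.84% of all genes were. At ZT14 1 of the 9, Tgfb2, was lower by 2-fold or more, against 2.77% of all genes, and 0 were higher, against 1.56%. Tgfb2 alone of the 9 was lower by 2-fold or more at both times, as were 1.06% of all genes. By sign, 5 of the 9 were below 0 at both times, against 25.6% of all genes, 2 (Smad7 and Bmp7) were above 0 at both times, against 26.2%, and Tgfbr1 and Smad3 had opposite signs at the 2 times. Genes with no measurable difference at a time count as 0 there, which lowers both shares. Of the 24638 genes, 20759 were above background on all 4 arrays, as the 9 were. Smad7 was below 0 at ZT2 with the mean over its probes. In limma 0 of the 9 passed the adjusted threshold, as did 0% of all genes. At an unadjusted p under 0.05 there were 4 of the 9 (Tgfb2, Tgfb3, Tgfbr2 and Ltbp1), all lower, where 5.35% of all genes were lower and 3.21% higher at that p.

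Set against the other 8, the log2 difference of Tgfb2 minus their median was -3.21 at ZT2 and -4.21 at ZT14. Without Tgfb2 the median of the others was -0.22 at ZT2 and -0.23 at ZT14, and they ranged between -1.46 (Tgfb3) and 0.12 (Bmp7) at ZT2 and between -0.85 (Ltbp1) and 0.55 (Bmp7) at ZT14. The median over all genes measured on both arrays was 0.00 at ZT2 and 0.02 at ZT14. For all genes tested the central 95% lay between -1.24 and 0.89 at ZT2 and between -1.06 and 0.83 at ZT14. Outside it were Tgfb2 at both times and Tgfb3 at ZT2. No test of Tgfb2 against the other 8 was made, since they were measured on the same 4 arrays.

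**Figure D2:**
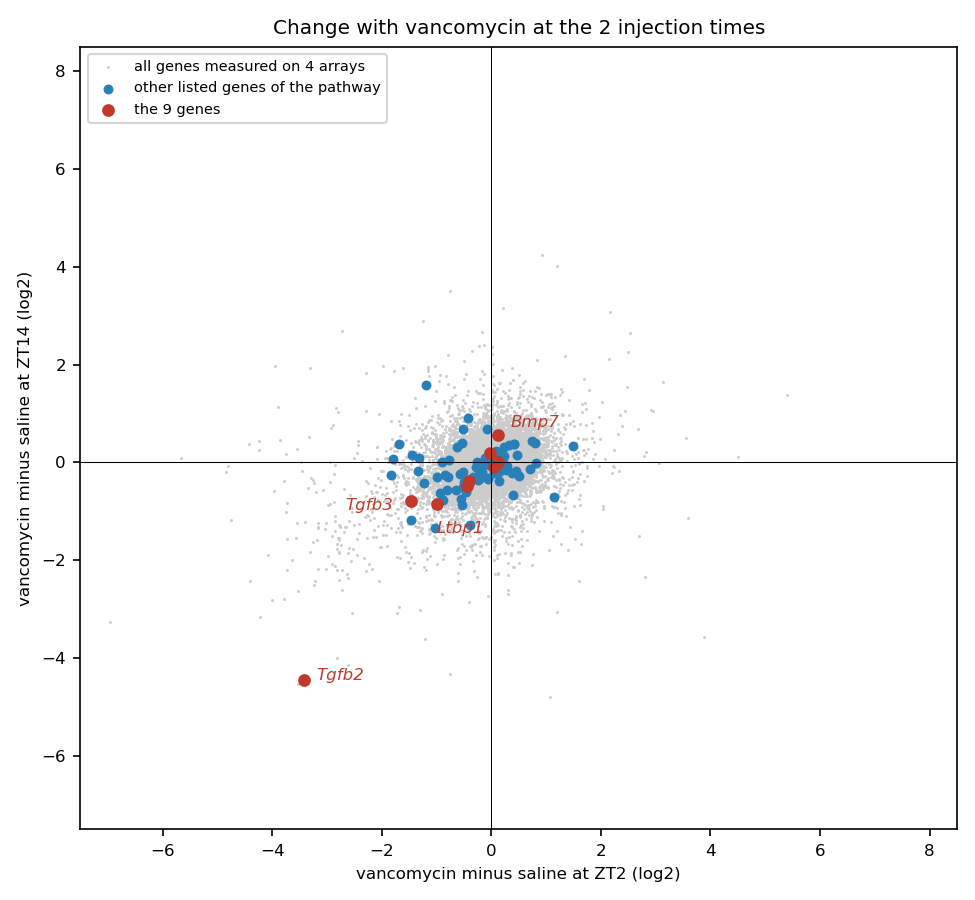
Log2 difference of vancomycin over saline at ZT2 (horizontal) and at ZT14 (vertical) for the 9 genes (red), the other listed genes of the pathway (blue) and all genes above background on 4 arrays (grey). Tgfb2 lies at -3.43 and -4.44, apart from the other 8, which lie between -1.46 and 0.55 on both axes.

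The injection times can also be compared within a treatment, with the slide as a part of that difference. In vancomycin kidneys 0 of the 9 genes differed by 2-fold between ZT14 and ZT2, where 8.93% of all genes were higher at ZT14 and 3.09% lower. In saline kidneys 1 of the 9, Tgfb3, was lower at ZT14 by 2-fold, at -1.0, where 8.21% of all genes were higher and 3.39% lower. Tgfb2 was higher at ZT14 than at ZT2 in saline kidneys, by 0.78 with the first probe and 1.05 with the second. In vancomycin kidneys the same probes stood at -0.24 and 0.07. The vancomycin difference at ZT14 minus that at ZT2 was -1.01 with the first probe and -0.98 with the second, and the larger part of this gap was in the saline arrays. It could not be tested, because the interaction uses the last degree of freedom. Tgfbr1 was lower at ZT14 under both treatments, at -0.54 with vancomycin and -0.76 with saline, and so was Tgfbr2, at -0.47 with vancomycin and -0.43 with saline.

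The wider pathway was read from 83 further genes in 8 lists, of which 82 were measured. At ZT2 10 of the 82 were lower with vancomycin by 2-fold or more and 2 were higher, where 3.62% and 1.84% of all genes were. At ZT14 3 were lower and 1 higher, close to the 2.77% and 1.56% of all genes. Their medians were -0.15 at ZT2 and -0.06 at ZT14, and 33 were lower and 16 higher at both times, where 25.6% and 26.2% of all genes were. In limma 0 of the 82 passed the adjusted threshold, and 14 had an unadjusted p under 0.05, of which 12 were lower and 2 higher, where 5.35% and 3.21% of all genes were.

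Among the 12 genes of latency and activation, 2 were lower by 2-fold or more at ZT2 and 1 at ZT14, where 3.62% and 2.77% of all genes were. The medians were -0.56 and -0.23. Ltbp2, a matrix protein of the same family as Ltbp1, had 5.78% with vancomycin against 15.9% with saline at ZT2, and 5.35% with vancomycin against 12.0% with saline at ZT14. It was lower at both times, at -1.46 and -1.17. Fbn1, the microfibril protein fibrillin-1 to which latent complexes attach, stood at -1.32 at ZT2 and 0.10 at ZT14. Itgb8, an integrin subunit that activates latent TGF-beta, was at 0.23 and 0.32.

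The list of further ligands held 10 genes, among them Bmp1, which despite its name encodes a protease. Of the 10, 1 was higher and 1 lower by 2-fold at ZT2, and 2 were lower at ZT14. Of all genes 1.84% were higher and 3.62% lower at ZT2, and 2.77% were lower at ZT14. Gdf10, a BMP-type ligand, had 26.6% with vancomycin and 54.1% with saline at ZT2, and 34.5% with vancomycin and 87.0% with saline at ZT14. Those are log2 differences of -1.03 and -1.34. Inhbb, the activin beta-B subunit, stood at -0.39 and -1.28. Gdf15, a stress-induced member of the superfamily, was on the other side, with 510.5% in the vancomycin kidney against 182.7% in the saline kidney at ZT2 (1.48), and 299.6% in the vancomycin kidney against 237.8% in the saline kidney at ZT14 (0.33).

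The receptor and SMAD lists held no gene past 2-fold in either direction at either time, with 10 receptors and coreceptors and 6 further SMADs measured. Of all genes 3.62% were lower and 1.84% higher at ZT2, and 2.77% lower and 1.56% higher at ZT14. At such shares, lists this short can hold none. Eng, the endothelial coreceptor endoglin, was at -0.50 and -0.40. Acvr2a, an activin receptor, was at 0.31 and 0.35, and Smad2, the partner of Smad3, at -0.51 and -0.19. Smad9, a BMP-type SMAD, was above background in the vancomycin kidney at ZT2 and the saline kidney at ZT14 only. The 12 intracellular regulators also had 0 genes past 2-fold, against the same shares of all genes. Smurf2, a ubiquitin ligase that acts on SMADs and receptors, stood at 0.80 and 0.39, and Tgif2, a SMAD corepressor, at -0.77 and 0.06.

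Among the 10 antagonists of BMPs and activin, 1 was lower by 2-fold or more at ZT2, against 3.62% of all genes. At ZT14 1 was higher, against 1.56% of all genes. Both counts are Grem1, a secreted BMP antagonist. It had 7.18% with vancomycin and 16.3% with saline at ZT2, and 11.7% with vancomycin and 3.88% with saline at ZT14. The vancomycin kidney was thus the lower at ZT2 and the higher at ZT14, at -1.18 and 1.59. Fstl1, a follistatin-like glycoprotein, was at -0.24 and -0.35, and Sostdc1, a BMP antagonist of the distal nephron, at 0.42 and 0.37.

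Of 17 genes known to be induced by TGF-beta, 6 were lower by 2-fold or more at ZT2 and 0 at ZT14, where 3.62% and 2.77% of all genes were. The list's medians were -0.84 and -0.26, and 11 were lower at both times, where 25.6% of all genes were. The 6 were the collagens Col1a1 (-1.83), Col1a2 (-1.23) and Col3a1 (-1.35), the contractile genes Acta2 (-1.79) and Tagln (-1.45), and the matrix protein Postn (-1.68). At ZT14 they lay between -0.41 (Col1a2) and 0.37 (Postn). Col1a1 had 194.2% with vancomycin and 691.1% with saline at ZT2, and 284.8% with vancomycin and 340.2% with saline at ZT14. Acta2, smooth muscle actin, had 848.9% with vancomycin and 2944.8% with saline at ZT2, and 972.2% with vancomycin and 922.1% with saline at ZT14. The saline array at ZT2 was the highest of the 4 for 8 of the 17 target genes, and for 6 of them it stood at least 1.5 times above each of the other 3 arrays (Col1a1, Col3a1, Acta2, Tagln, Postn and Lox). The vancomycin array at ZT2 was the lowest of the 4 for 12 of the 17. The share of all genes with either order was not counted. For the 6 genes where the saline array at ZT2 stood apart, the ZT2 difference thus rests in part on that 1 array. Bhlhe40, a transcription factor in the same list, was at 0.41 and 0.37. Of the 5 BMP target genes measured, Id1, an inhibitor of DNA binding that BMPs induce, was higher by 2-fold at ZT2 (1.14) and stood at -0.70 at ZT14. Id3 had the same pair of signs, at 0.40 and -0.67, and Id4 was at 0.75 and 0.44.

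**Figure D3:**
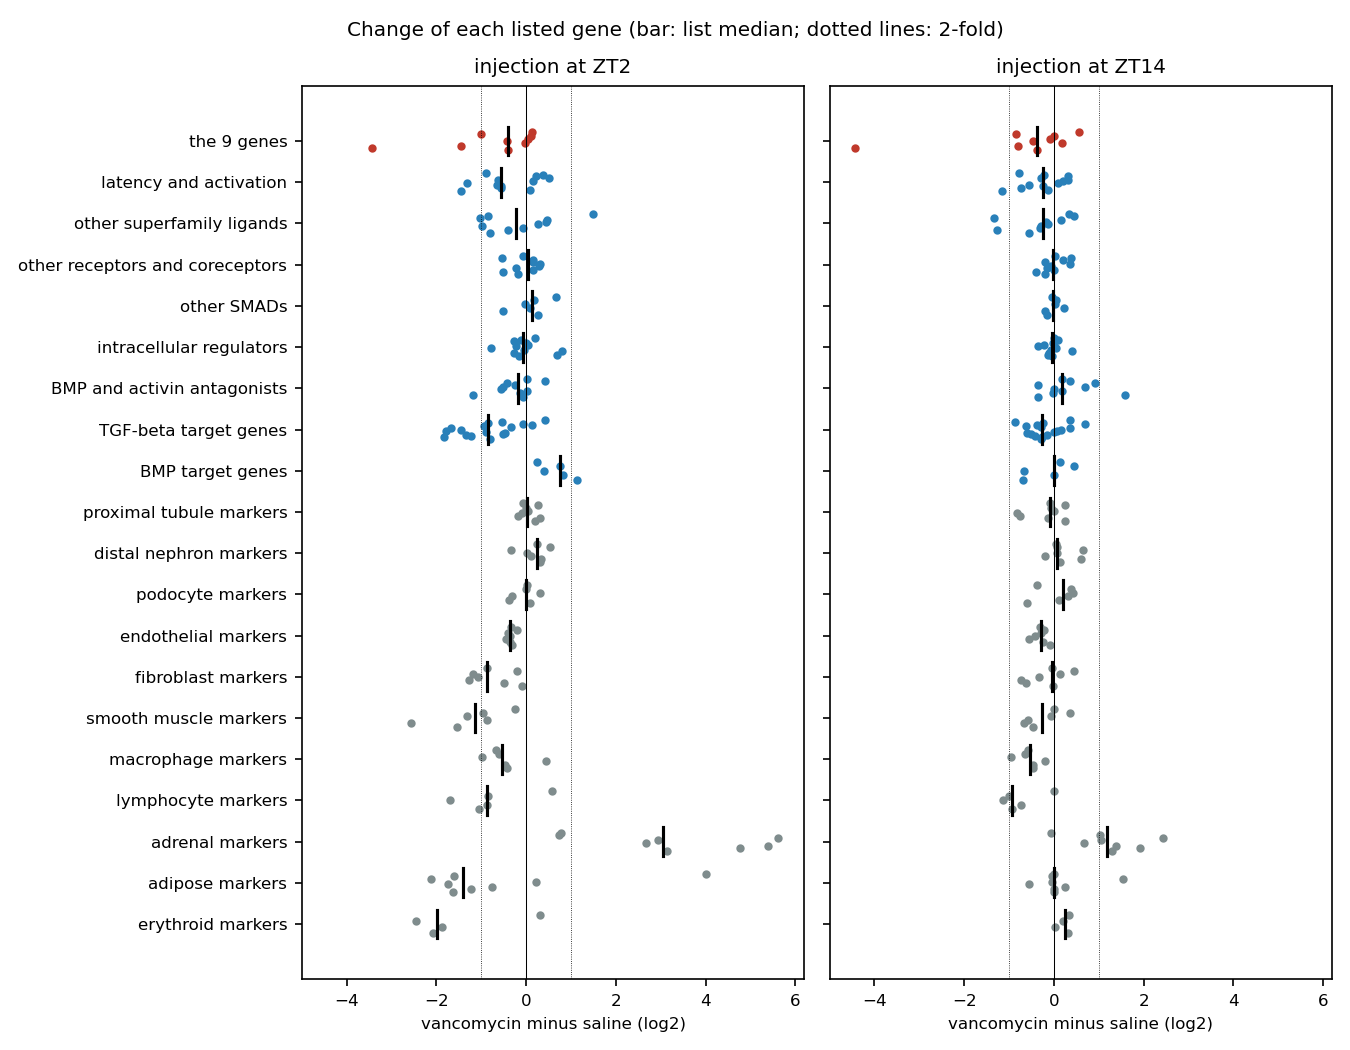
Log2 difference of vancomycin over saline for each gene of the 9 and of the pathway and marker lists, at ZT2 (left) and ZT14 (right). Points are genes, thick bars list medians and thin lines 2-fold. Tgfb2 is the red point at -3.43 and -4.44, the TGF-beta target list has its median at -0.84 at ZT2 and -0.26 at ZT14, and the adrenal list has its median above 0 at both times.

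Markers of other cell types differed between the same arrays. For the counts that follow, 3.62% of all genes were lower with vancomycin by 2-fold or more at ZT2 and 2.77% at ZT14. The 7 fibroblast markers had a median of -0.87 at ZT2, with 3 lower by 2-fold or more, and of -0.04 at ZT14 with 0, and their summed signal was 2192.3% with vancomycin and 2985.5% with saline at ZT2, and 1968.6% with vancomycin and 1882.1% with saline at ZT14. Over 0.5 of each vancomycin sum was Nt5e. Without it the sums were 759.5% with vancomycin and 1325.2% with saline at ZT2, and 904.9% with vancomycin and 1101.5% with saline at ZT14. The 6 smooth muscle markers had medians of -1.13 and -0.26, and their sum was 1272.6% with vancomycin and 3410.9% with saline at ZT2, and 2501.0% with vancomycin and 2613.6% with saline at ZT14. Most of each sum was Myl9, at 1045.0% with vancomycin and 2588.8% with saline at ZT2. At ZT14 Myl9 was at 2264.0% with vancomycin and 2350.3% with saline. Both lists were thus lower with vancomycin at ZT2, as were the collagens, Acta2 and Tagln. The saline array at ZT2 was the highest of the 4 for 7 of the 7 fibroblast markers and 5 of the 6 smooth muscle markers. It stood at least 1.5 times above each other array for the fibroblast marker Lum and for the smooth muscle markers Myh11 and Cnn1. The vancomycin array at ZT2 was the lowest for 3 of the 7 and 3 of the 6. The share of all genes with these orders was not counted. Lmod1 was above background on the saline array at ZT2 alone, at least 1.18-fold above vancomycin at ZT2, and counts as 0 at ZT14. The 7 endothelial markers were all lower at both times, where 25.6% of all genes were, with medians of -0.35 and -0.28. The macrophage list of 6 had medians of -0.54 and -0.52. The 5 lymphocyte markers measured had medians of -0.87 and -0.94. The 4 erythroid markers measured had medians of -1.98 at ZT2, with 3 lower by 2-fold or more (Hba-a1, Hbb-b1 and Alas2), and of 0.25 at ZT14. Their sum was 1094.7% with vancomycin and 3384.0% with saline at ZT2, and 4251.5% with vancomycin and 3434.5% with saline at ZT14, so the vancomycin array at ZT2 was the low one.

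Of the 8 adrenal markers, 7 were higher with vancomycin at both times, where 26.2% of all genes were. The list medians were 3.04 at ZT2 and 1.17 at ZT14 (genes below background on 1 array at their bound). The exception was Th, at 0.78 and -0.06. All 8 were above background on both vancomycin arrays and 4 of 8 on each saline array, and their sum was 643.1% with vancomycin and 63.6% with saline at ZT2, and 129.4% with vancomycin and 70.3% with saline at ZT14. Cyp11b1, which makes corticosterone, and Chga, of the adrenal medulla, were not above background on either saline array. The 8 adipose markers had a median of -1.42 at ZT2, with 5 lower and 1 higher by 2-fold or more, where 3.62% and 1.84% of all genes were. Their sum was 1942.7% with vancomycin and 4242.3% with saline at ZT2, and 1064.8% with vancomycin and 911.9% with saline at ZT14. Most of each ZT14 sum was 1 gene, Fabp4, at 998.4% with vancomycin and 843.1% with saline. Adipoq and Plin1 were above background on both ZT2 arrays and on neither ZT14 array, so no median is given at ZT14. Ucp1, of brown fat, was above background on the vancomycin array at ZT2 alone, at 34.9%, at least 16.1-fold higher than with saline. The part of any of these markers in the differences of the 9 genes was not tested.

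Genes with a profile close to that of Tgfb2 were sought by the Euclidean distance between log2 signals over the 4 arrays, each gene centred on its own mean. The nearest was Npy, neuropeptide Y, at a distance of 0.39 log2 units. It had 19.9% with vancomycin and 229.8% with saline at ZT2, and 13.0% with vancomycin and 302.3% with saline at ZT14. Both vancomycin kidneys were low, at -3.53 and -4.54, and Npy is the 1 gene that lay below Tgfb2 at both times among those above background on all 4 arrays. Tekt1, a ciliary tektin, was at 1.05, with differences of -2.81 and -4.0. Slco1b2, an organic anion transporter best known in liver, was at 1.19, with -2.55 and -3.07. The rule also returned Mylk4, a kinase of the myosin light chain kinase family, and Rbp2, a retinol binding protein best known in intestine. Neither was well above background in a vancomycin kidney, so both were kept through the saline arrays alone and their distances rest on undetected values. Likeness over 4 arrays describes these libraries only.

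**Figure D4:**
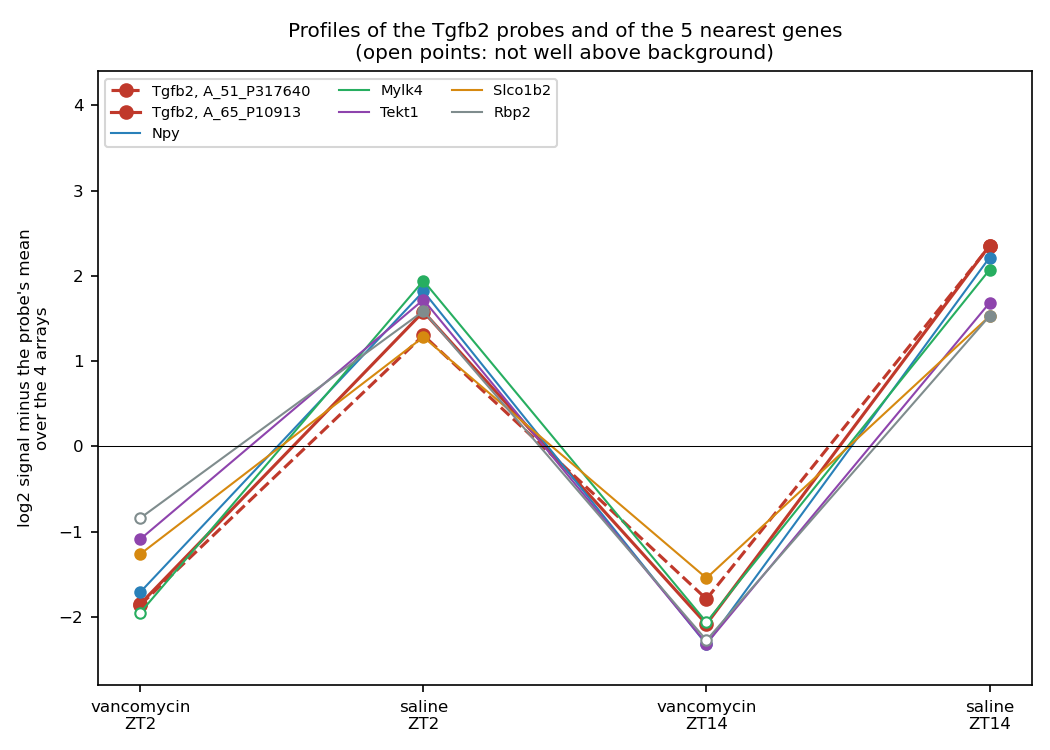
Log2 signal of both Tgfb2 probes (red, the second probe dashed) and of the 5 nearest genes on the 4 arrays, each minus its own mean (open points: not well above background on that array). All 7 profiles are low in both vancomycin kidneys and high in both saline kidneys, which for the 5 genes follows from how they were chosen. The lines join arrays only to guide the eye.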

How the data were processed

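Per the labels' protocols, total RNA was amplified, labelled with Cy3 and hybridised to single-colour Agilent arrays. The authors deposited scanner files, whose processed intensity per spot is background-subtracted and detrended with no normalization between arrays, per the file headers (Feature Extraction 10.7.1.1, while the submitters' processing notes name 9.5.1.1). Probe positions are in mm9, per the file headers. The deposited value table holds intensity values with 1 shared median, 35.2, and served as an alternative only.

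Here the 75th percentile of an array was subtracted from its log2 intensities, and spots of the same probe were averaged. Probes needed a share of 0.5 or more of their spots flagged above background on 1 array or more, and the brightest such probe stood for a gene. Where 1 array of a pair was not above background, the difference is a bound ("at least"). Differences at 1 time used a 2-fold size rule with no test. Over both times limma 3.58.1 (R 4.3.3) fitted treatment and time, with Benjamini-Hochberg adjustment over all genes, and was tested on simulated data, where nearly all seeded changes had the right sign and none passed the adjusted threshold. Named genes were the 9 with every probe, listed pathway genes past 2-fold at either time or with the largest and smallest sum of differences in their list, and the 5 genes nearest to Tgfb2. Marker genes and probes named beside them were chosen after their values were seen. Of the listed genes, 3 are not reported here and stand in no count of the lists. The 9 genes and the lists were chosen with earlier results of these data known. Arrays give no read depth, and their number limits the precision. Alternatives covered the centring, normalization, background correction, the deposited table, a pseudocount, the filter, the probe rule, the time term and the prior.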

Additional observations from a re-analysis of the deposited data

Results flagged for a closer look

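The genes below are named pathway genes that had opposite signs of the vancomycin difference at the 2 injection times. Of all genes, 25.6% were below 0 and 26.2% above 0 at both times. The remaining genes had opposite signs or a difference set to 0. Listed genes not named for their size or sum, such as Fstl3 (-0.42 at ZT2 and 0.91 at ZT14) and Itgav (-0.63 and 0.31), also changed sign. The values that follow are the log2 difference at ZT14 minus that at ZT2. With 1 array per group this gap was not tested for any of them, and the slide and the time cannot be told apart. Among the 9 genes, Tgfbr1 stood at 0.22, with the same sign at both times under median centring, and Smad3 at -0.13, both small beside the -1.01 of Tgfb2, whose sign was the same at both times. In the wider pathway the BMP antagonist Grem1 stood at 2.77. Genes of matrix and contractile cells stood at 2.05 (Postn), 1.87 (Acta2), 1.61 (Tagln) and 1.42 (Fbn1), and the corepressor Tgif2 at 0.83. The BMP targets Id1, at -1.84, and Id3, at -1.06, ran the other way. Of the 5 BMP targets measured, 2 (Id4 and Msx1) were above 0 at both times. Id2 was at 0.82 at ZT2 and -0.01 at ZT14.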

How the results depend on the processing

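Each result was recomputed with 1 choice changed at a time. Tgfb2 lay between -3.43 and -3.08 at ZT2, between -4.44 and -4.11 at ZT14 and between -3.94 and -3.60 over both times, with adjusted limma p between 0.0819 (normexp) and 0.887 (no time term), and 0 genes passed under any setting. With normexp background correction the wider pathway genes past 2-fold were 8 at ZT2, against 12, and 1 at ZT14, against 4. With the mean over a gene's probes, members past 2-fold were 2 at ZT14, against 1, and 1 between times in vancomycin kidneys, against 0. The added gene is Tgfb1 (-1.51 at ZT14), by the value of its dim probe, which was not above background there. With cyclic loess, normexp or a pseudocount of 16, 0 members were past 2-fold between times in saline kidneys, against 1 (Tgfb3). Over both times Smad3, at -0.02, was 0.011 with median centring and 0.020 with the mean over probes, and Smad7, at 0.06, was -0.033 with the mean over probes. Ltbp1 at ZT2 was -0.43 with the mean over probes. Median centring shifted all genes between times by -0.12 with vancomycin and -0.11 with saline. Without the time term 890 genes had an unadjusted p under 0.05, against 2107. At ZT2 Tgfbr1, at -0.03, was 0.0034 with median centring and 0.051 with the mean over probes, and Smad7, at 0.12, was -0.080 with the mean over probes. Of 261 recomputed values of single genes, 255 had the sign of the reported value, and the 6 that did not are those named here. The time term of the fit already sets vancomycin against saline within each time. No further pairing was possible because each group had 1 array and so 1 replicate number. No replicate could be left out. Signals near background limit the dim probes.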
